A study of Mus musculus with 3 samples.

Results

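Gene deserts are long stretches of a chromosome with no known gene. Here they were the autosomal bins of 1 Mb that held 30 or more unique array probes, none of which carried a gene name. Of 2229 autosomal bins with at least 30 probes, 33 met this rule, with 1138 of 157493 probes, and the other 2196 bins served for comparison. Probes without a name show their own coordinates in place of one, so the choice used names and probe numbers and no measured ratio.

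The study measured copy number with array comparative genomic hybridisation in 3 neurosphere lines, which are floating cultures grown from mouse gliomas resistant to an inhibitor of CSF1R, a receptor on which microglia and macrophages depend. Line DNA, from passages 2 to 3, carried the dye Cy5, and DNA of mouse liver carried Cy3 on the same array. There was 1 group of 3 lines, from 2 animals by their numbers: 1 animal gave line 1 and the other gave both line 2 and line 3, each line being set against the liver of its animal. The sources used here do not name the mouse strain, genotype, age, inhibitor or dose. With 1 slide and no swapped dyes, what dye, slide or reference adds to all arrays cannot be told apart from the lines.

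As background, gene deserts tend to be rich in A and T and in interspersed repeats, and many replicate late in the S phase. Some hold distant enhancers of developmental genes at their edges, while others have few known elements. In a copy number experiment, bins chosen by the rule used here carry no gene named on the array. They serve as a view of the ratio in DNA without named probes, although coding genes lie between the edges of some, as given below. On the log2 scale, a gain of 1 copy in all cells of a diploid line corresponds to 0.585 and a loss of 1 copy to -1. In DNA pooled from many cells, a change in few cells and a smaller ratio in all of them cannot be told apart.

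Probe sequences show what was hybridised. The 5 below are the probes nearest the middle of the highest bin, the lowest bin and the 3 longest runs of adjoining gene desert bins. The highest and lowest bins were picked by mean ratio, and the probe within each bin or run by place. They are printed as the array files give them, with mm9 coordinates, no strand being given there. Capitals mark G and C, which were outnumbered by A and T in all 5.
Highest bin, chr12:69502651-69502710: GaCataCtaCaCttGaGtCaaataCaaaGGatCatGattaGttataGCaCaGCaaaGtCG
Lowest bin, chr3:44516645-44516704: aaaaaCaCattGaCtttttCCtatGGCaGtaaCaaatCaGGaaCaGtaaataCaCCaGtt
Run after Olfm4, chr14:82006250-82006309: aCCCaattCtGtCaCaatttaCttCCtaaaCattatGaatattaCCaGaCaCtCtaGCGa
Run in the longest name-free stretch, chr14:111991593-111991652: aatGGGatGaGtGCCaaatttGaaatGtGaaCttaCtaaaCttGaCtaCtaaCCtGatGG
Run before Mettl4, chr17:93987810-93987869: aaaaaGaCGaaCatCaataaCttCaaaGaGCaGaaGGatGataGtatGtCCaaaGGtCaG

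G and C made up 20 to 22 of the 60 bases of each printed probe, and a CG pair was present in 3 of the 5. Over all 1138 gene desert probes the GC content averaged 36.5%, against 36.8% over the probes of the other bins, a small gap on an array whose probes were of nearly equal composition. A CG pair was found in 28.9% of gene desert probes and in 36.3% of the others. The probes were also farther apart, with a median spacing of 26966 base pairs in gene desert bins and 10631 in the others. Signal was ample: 96.9% to 99.3% of gene desert probes were well above background for liver DNA and 98.9% to 99.4% for line DNA, close to the 96.8% to 99.2% and 99.2% to 99.6% of the other bins. Line 1 was the noisiest array, with a spread between neighbouring gene desert probes of 0.37 on the log2 scale against 0.21 in line 2 and 0.23 in line 3. No spot was saturated.

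The 33 bins lay on 15 autosomes, with 7 on chromosome 14, 4 on chromosome 12 and 3 each on chromosomes 3, 7 and 13. They made 30 runs, of which 27 were single bins and 3 were pairs of adjoining bins. Measured between the nearest probes with a name, the runs lay in 29 name-free stretches of 1.1 to 6.0 Mb (median 1.8 Mb). The longest held 3 of the bins on chromosome 14.

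The label was checked against the order of genes in RefSeq (GRCm38.p6), which was used for names and neighbours only. Of the 58 edges of the 29 stretches, 25 carried a name that RefSeq matched on the same chromosome. The other 33 carried transcript names, and the next matched name outward was used there. No protein-coding gene lay between the matched edges in 18 stretches, 1 did in 6 and 2 to 4 did in 3. In the stretches around the long chromosome 14 desert the enclosed coding genes were Trim52, Slitrk1, Slitrk6 and Slitrk5, the last 3 encoding synaptic adhesion proteins, and the array had 0 probes named for those 3. Only 19 of the 33 bins had no coding gene between their edges, and where in a stretch an enclosed gene lies was not read. On chromosome 7 the label did not hold for 2 bins. The edges Nlrp4b and Zfp551 enclosed 18 coding genes, among them vomeronasal receptors of the Vmn1r family and Zscan4 genes of the early embryo, and the edges Ovch2 and Nlrp10 enclosed 42, of which many were olfactory receptors. Probes in these 2 bins carried no gene name although RefSeq places genes there, and the main difference is given with and without them.

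Gene desert bins had lower line-to-liver ratios than the rest of the autosomes in all 3 lines. Their mean log2 ratios were -0.091, -0.11 and -0.050 in lines 1, 2 and 3, where the other bins averaged -0.0036, 0.0023 and 0.0069. The difference was therefore -0.088, -0.11 and -0.057, with a mean of -0.086 ± 0.028 (SD, n = 3), larger than the spread between lines. It was below 0 in 3 of 3 lines (exact sign flip test, 2-sided, p = 0.25, the smallest value that 3 lines allow, and 0.313 after Benjamini-Hochberg adjustment over 5 comparisons). Its size was well short of the -1 that corresponds to 1 lost copy in all cells. With 3 lines this p-value is 0.25 whenever all signs agree, whatever the sizes. Since 2 of the lines came from 1 animal, the p-values do not speak for animals. With 1 array for each line, the spread between cultures and that between arrays cannot be told apart.

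Most of the bins lay on the low side. Of the 33 bins, 27 lay below 0 in line 1, 32 in line 2 and 24 in line 3, against 51.0%, 46.2% and 45.4% of the other bins. All 3 lines were below 0 in 22 bins (66.7%) and above 0 in 1 (3.03%), while over all 2229 bins 28.7% were below 0 in all lines. Single probes showed the same lean: 59.5%, 69.9% and 61.3% of gene desert probes lay below 0 in lines 1, 2 and 3, where 49.7%, 49.4% and 49.7% of the other probes did. Values for single bins ran from -0.27 to 0.19 in line 1 (median -0.098), from -0.24 to 0.0072 in line 2 (median -0.12) and from -0.19 to 0.10 in line 3 (median -0.057). Both sets of bins overlapped in every line.

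**Figure D1:**
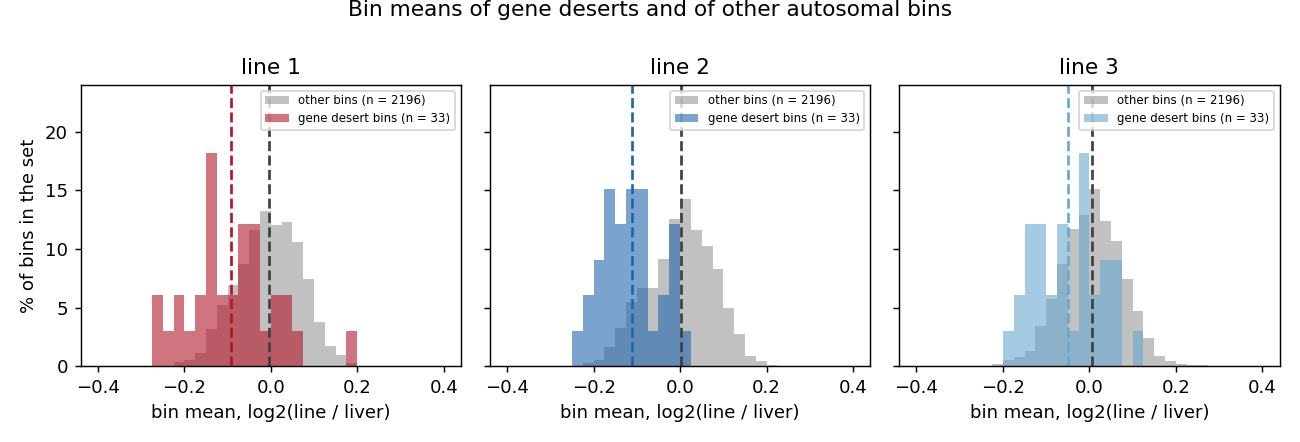
Histograms of bin means (x axis, log2 of line over liver) as a percent of the bins in each set (y axis), for 33 gene desert bins (colour) and 2196 other bins (grey), 1 panel a line, with dashed lines at the means. The coloured means sit left of the grey ones in each panel, at -0.091, -0.11 and -0.050, and the histograms overlap.

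The same difference was seen within chromosomes. Against other bins of their own chromosome, gene desert bins were lower by a mean difference of -0.082 ± 0.028 (SD, n = 3), and of the 15 chromosomes with a gene desert bin, 10 had a lower mean there in all 3 lines. On chromosome 14, the 7 bins averaged -0.16, -0.11 and -0.030 in lines 1, 2 and 3, and the 98 other bins averaged -0.018, 0.0021 and 0.011. Chromosome 12 was flatter, with gene desert means of -0.016, -0.056 and 0.0058. Without the 2 receptor clusters of chromosome 7 the difference over all bins was -0.087 ± 0.031 (SD, n = 3), and for the 19 bins whose edges enclosed no coding gene it was -0.098 ± 0.032 (SD, n = 3). Correcting each probe for its GC content left -0.084 ± 0.027 (SD, n = 3). Probes differ little in GC content, and the base composition of whole bins was not read, so this covers probe sequence only. Over the other bins, the ratio correlated with mean probe GC at Pearson r = 0.22, 0.49 and 0.18 in lines 1, 2 and 3. Over gene desert bins r was -0.026, 0.21 and -0.019. In the authors' deposited value table, which differs from the scanner ratios by steps the sources do not describe, the difference was smaller, at -0.050, -0.029 and -0.031 in lines 1, 2 and 3.

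Each bin's mean was also tested against 0 across the 3 lines with limma, fitted on all 2229 bins. The fit took the lines as independent, although lines 2 and 3 came from 1 animal and all arrays shared 1 slide. Its p-values, also those of single bins below, therefore speak only for how well these arrays repeat over bins as a whole. The fit draws each bin's variance toward that of all 2229 bins. The SD over lines was 0.017 in chr10:71000001-72000000 and 0.13 in chr17:93000001-94000000, but their standard errors in the fit were 0.024 and 0.026. A bin could thus pass although its lines differed, as chr5:41000001-42000000 did (-0.20, -0.022 and 0.028 in lines 1, 2 and 3, limma adjusted p = 0.0368). Of the 33 gene desert bins, 24 passed (limma adjusted p under 0.05), 24 below and 0 above 0. Over all bins 20.1% passed below 0, 19.5% above and 39.6% in either direction, so passing was common among bins of any kind. On the authors' deposited values, 18 gene desert bins passed, 14 below and 4 above 0, where 32.4% of all bins did. With lines 2 and 3 averaged as 1 animal, 23 passed, 22 below and 1 above 0, where 32.8% of all bins did. Size gave a similar view: means of -0.2 or lower were found in 5 of 33 bins in line 1, 3 in line 2 and 0 in line 3, where the shares over all bins were 0.628%, 0.404% and 0.179%. Means of 0.2 or higher were found in 0 of 33 bins in each line, with shares over all bins of 0%, 0.224% and 0.449%. In total 7 bins were at least 0.2 from 0 in some line, against 1.66% of all bins. In all 3 lines 0 of the 33 were, and 0 of all 2229 bins. On the authors' deposited values 1 bin was that far from 0 in some line, against 1.26% of all bins. With bins shifted by 500 kb 2 of 23 were, against 2.19%. Under normexp, another background correction, 5 of 33 were, against 3.01% of all bins: 0 in line 1, 5 in line 2 and 1 in line 3. Which line held the bins far from 0 thus depended on the background correction. Means of gene desert bins rest on fewer probes (median 32, against 73 in the other bins). The counts by size were not compared with bins of like probe number.

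The lowest bin of all 2229 was a gene desert on chromosome 3, chr3:44000001-45000000, before Pcdh10, a protocadherin of brain circuits. Its means were -0.27, -0.24 and -0.14 in lines 1, 2 and 3, an average of -0.21 ± 0.067 (SD, n = 3; limma adjusted p = 5.86e-10). Of its 31 probes, 27, 29 and 23 lay below 0 in lines 1, 2 and 3, so the low level was spread over the bin. Its liver signal was above the array's autosomal median, by 0.27, 0.20 and 0.20, while its line signal stood at -0.0038, -0.051 and 0.042.

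On chromosome 8, chr8:76000001-77000000 lies between Large, a glycosyltransferase that modifies dystroglycan, and Isx, an intestinal homeobox factor. It had the lines closest together among the 5 lowest bins: -0.16 in line 1, -0.21 in line 2 and -0.19 in line 3, an average of -0.19 ± 0.024 (SD, n = 3; limma adjusted p = 7.07e-09). Every line was low, and 21, 25 and 26 of its 33 probes lay below 0.

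On chromosome 14, chr14:82000001-83000000 belongs to a pair of adjoining bins between Olfm4, a secreted olfactomedin, and Pcdh17, a protocadherin. It measured -0.25, -0.16 and -0.14 in lines 1, 2 and 3, an average of -0.18 ± 0.059 (SD, n = 3; limma adjusted p = 1.62e-08). The bin before it, chr14:81000001-82000000, measured -0.15, -0.12 and -0.015 (limma adjusted p = 0.00178), so that line 3 was near 0 in one bin of the pair and low in the other.

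Both remaining bins of the 5 lowest lie on chromosome 6 next to metabotropic glutamate receptors. The bin before Grm8, chr6:26000001-27000000, measured -0.17, -0.21 and -0.13 (average -0.17 ± 0.038, SD, n = 3; limma adjusted p = 6.47e-08). The bin between Edem1, which helps clear misfolded glycoproteins from the endoplasmic reticulum, and Grm7, chr6:109000001-110000000, measured -0.22, -0.15 and -0.10 (average -0.16 ± 0.060, SD, n = 3; limma adjusted p = 4.74e-07). The channels of these bins differed: liver signal was above the array's median by 0.23, 0.22 and 0.22 before Grm8, and it was -0.25, -0.32 and -0.28 before Grm7. Of the 5 lowest bins, only the bin before Grm7 had liver signal below the median. Liver signal was 0.13, 0.15 and 0.13 in the chromosome 8 bin, on the arrays of lines 1, 2 and 3. In chr14:82000001-83000000 it was 0.26, 0.18 and 0.21. How the ratio of a bin relates to its signal level was not tested.

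**Figure D2:**
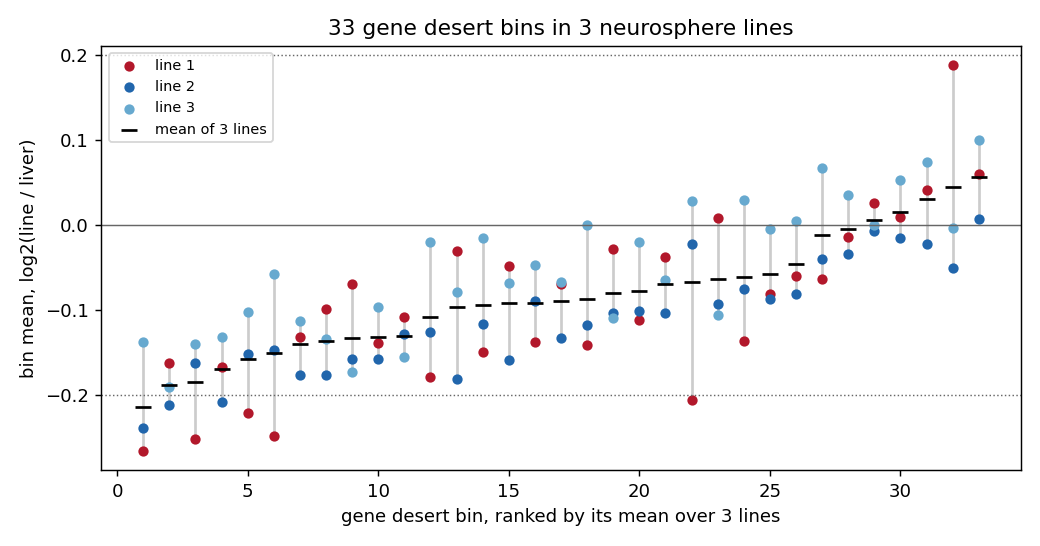
Mean log2 ratio (y axis) of each of the 33 gene desert bins, ranked by its mean over the lines (x axis); points are lines, black bars are means over 3 lines, grey bars join the lines of a bin, and dotted lines mark 0.2 from 0. Most bars lie below 0, and line 1 alone is far from the others at rank 22 (-0.20) and rank 32 (0.19).

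At the upper end, 0 gene desert bins passed limma above 0 with the 3 lines taken singly. The highest, chr12:69000001-70000000, after Mdga2, a membrane-anchored adhesion protein of neurons, measured 0.060, 0.0072 and 0.10 in lines 1, 2 and 3 (average 0.056 ± 0.047, SD, n = 3; limma adjusted p = 0.0576). The printed probe from its middle was below 0 in all lines, at -0.098, -0.25 and -0.096, unlike the mean of its bin. On the same chromosome, chr12:98000001-99000000, between Flrt2, an adhesion and guidance protein, and Galc, which breaks down a myelin lipid, measured 0.041, -0.022 and 0.074. On chromosome 3, chr3:140000001-141000000, before Unc5c, a netrin receptor, measured 0.0095, -0.015 and 0.053. On chromosome 10, chr10:71000001-72000000, between Ipmk, an inositol phosphate kinase, and the kinetochore gene Zwint, measured 0.025, -0.0074 and 0.00058. The last of these bins was the closest to 0 in mean, with no line beyond 0.025.

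Line 1 parted from lines 2 and 3 in a few bins. The largest gap was on chromosome 17, where chr17:93000001-94000000 measured 0.19 in line 1, -0.051 in line 2 and -0.0038 in line 3, a difference of -0.21 between the mean of lines 2 and 3 and line 1. In line 1 the 4 equal parts of this bin averaged 0.44, 0.13, 0.0058 and 0.24 over 7 to 9 probes each, so the level was uneven within the bin. The liver signal of that bin was -0.42 in line 1 and -0.26 and -0.29 in lines 2 and 3, and the line signal was -0.24, -0.32 and -0.32. The adjoining bin chr17:94000001-95000000, before Mettl4, measured -0.098, -0.18 and -0.13, low in every line (limma adjusted p = 6.63e-06).

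The next largest gaps went the other way. On chromosome 5, chr5:41000001-42000000, between Hs3st1, an enzyme of heparan sulfate synthesis, and Rab28, a small GTPase, measured -0.20 in line 1, -0.022 in line 2 and 0.028 in line 3, low in line 1 alone. On chromosome 1, chr1:150000001-151000000, between Brinp3, a gene of the nervous system, and Pla2g4a, a phospholipase, measured -0.25, -0.15 and -0.057, below 0 in each line and farthest from 0 in line 1. With 1 array for line 1 and 2 arrays from 1 animal on the other side, these gaps were not tested, and line 1 was the noisiest array.

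The longest name-free stretch, on chromosome 14, held the pair chr14:111000001-113000000 and the bin chr14:114000001-115000000. The bins of the pair measured -0.14, -0.075 and 0.030, and -0.14, -0.090 and -0.047, in lines 1, 2 and 3, and the third bin measured -0.11, -0.10 and -0.020. Lines 1 and 2 were below 0 in each of the 3 bins, and line 3 was closer to 0 in each and above it in 1. Over all 33 bins, line 2 and line 3 were the most alike (Pearson r = 0.856), followed by lines 1 and 2 (0.604) and lines 1 and 3 (0.430), as a description over 33 bins that share probes, slide and, for lines 2 and 3, the liver label. The order was the same over the 2196 other bins, at 0.708, 0.685 and 0.626. The SD over gene desert bins was 0.099, 0.064 and 0.077 in lines 1, 2 and 3, and over other bins 0.072, 0.076 and 0.070. Under normexp background correction the SD over gene desert bins was 0.068, 0.065 and 0.082, so the wider spread in line 1 was not kept.

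Both channels were then read alone, as log2 signal centred on the autosomal median of each array. Liver signal was higher in gene desert bins than in other bins by 0.058, 0.068 and 0.069 on the arrays of lines 1, 2 and 3, a mean of 0.065 ± 0.0062 (SD, n = 3; exact sign flip test, 2-sided, p = 0.25, the smallest value possible, 0.313 adjusted). Line signal differed by -0.030, -0.045 and 0.012, a mean of -0.021 ± 0.030 (SD, n = 3; exact sign flip test, 2-sided, p = 0.50, 0.50 adjusted). The gap in the ratio thus came with brighter liver signal on all 3 arrays, and the line signal was lower on 2 and higher on 1. Such levels compare different probes, and how strongly each probe binds was not tested. The SD of liver signal over gene desert bins was 0.20, 0.18 and 0.17 on the arrays of lines 1, 2 and 3. In which sample the gap arises cannot be read from these levels. Lines 2 and 3 were set against the liver of 1 animal, so the 3 liver values are not independent. The SD and p-value of the liver difference therefore speak for arrays and not for animals. Since each array was dye-normalised as a whole and no dyes were swapped, a difference of dye and a difference of sample cannot be told apart.

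**Figure D3:**
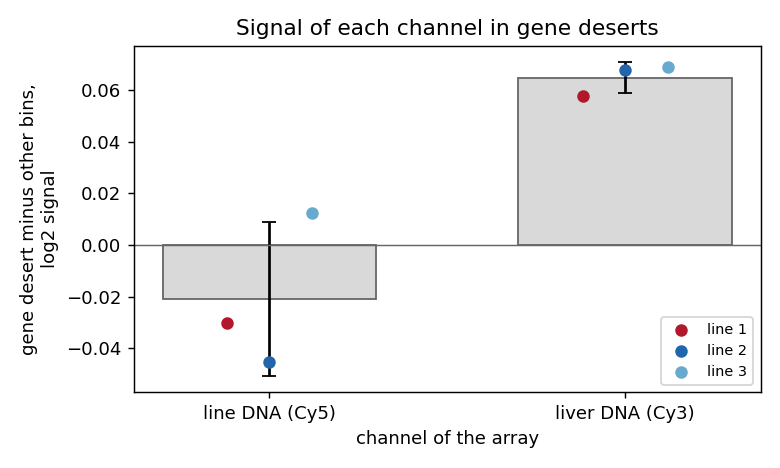
Difference in log2 signal between gene desert bins and other bins (y axis) for line DNA and liver DNA (x axis); bars are means over 3 arrays, error bars are SD (n = 3), and points are the arrays. The 3 liver points lie between 0.058 and 0.069, and the line points fall on both sides of 0.

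Bins with few named probes were low as well. Bins with up to 10% of their probes named averaged -0.080, -0.11 and -0.056 in lines 1, 2 and 3 (37 bins), next to -0.091, -0.11 and -0.050 in gene desert bins. Bins with over 10% to 25% named averaged -0.063, -0.086 and -0.037 (80 bins), and those with over 50% to 75% averaged 0.0040, 0.018 and 0.014 (943 bins). Bins with over 90% named had means of -0.0096, -0.0066 and -0.0072 (170 bins), below 0 again. Against the other bins with under 25% of probes named, gene desert bins differed by -0.022, -0.014 and -0.0050, a mean of -0.014 ± 0.0084 (SD, n = 3; exact sign flip test, 2-sided, p = 0.25, 0.313 adjusted). The direction was the same in 3 of 3 lines, and in line 3 the difference was near 0.

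The number of probes in a bin moved with the ratio too. Gene desert bins had a median of 32 probes and the other bins 73, and other bins with 30 to 39 probes averaged -0.050, -0.074 and -0.025 in lines 1, 2 and 3 (179 bins). Against those bins, gene desert bins were lower by a mean difference of -0.034 ± 0.0088 (SD, n = 3; exact sign flip test, 2-sided, p = 0.25, 0.313 adjusted), a comparison added after the values were seen. The part of probe number in the result was not tested beyond this. At the edge of the rule, bins with no name and 30 to 34 probes averaged -0.095, -0.11 and -0.052 (25 bins), bins with no name and 25 to 29 probes, just outside it, averaged -0.076, -0.12 and -0.049 (60 bins), and bins with 30 or more probes of which 1 was named averaged -0.075, -0.11 and -0.054 (14 bins).

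**Figure D4:**
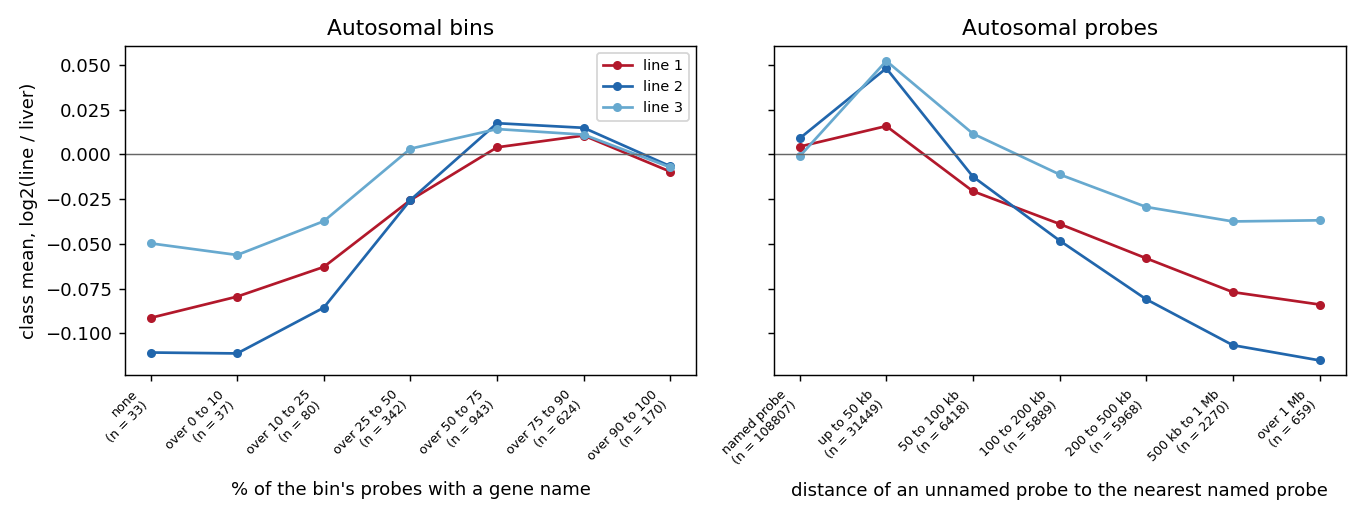
Mean log2 ratio (y axis) of autosomal bins by the percent of their probes with a gene name (left) and of autosomal probes by their distance to the nearest named probe (right), 1 coloured line for each of lines 1 to 3, with the number of bins or probes in each class. Values are lowest where at most 10% of probes are named or a name is over 500 kb away, and unnamed probes within 50 kb of a named one are the highest class in lines 1, 2 and 3.

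Distance to the nearest named probe ordered the values without any bins. Named probes averaged 0.0044, 0.0090 and -0.0011 in lines 1, 2 and 3, and unnamed probes within 50 kb of one averaged 0.016, 0.048 and 0.052. From there the means were lower at greater distance, at -0.058, -0.081 and -0.029 at 200 to 500 kb and at -0.084, -0.12 and -0.037 beyond 1 Mb (659 probes), where line 3 matched its mean at 500 kb to 1 Mb to 2 digits. Leaving out the gene desert bins gave -0.074, -0.12 and -0.034 beyond 1 Mb (450 probes), so unnamed probes far from a name were low outside the 33 bins as well. Against the unnamed probes of the other bins, gene desert bins differed by -0.092, -0.13 and -0.087. Outside gene desert bins, most unnamed probes lay within 50 kb of a named one (31442 probes). This contrast therefore mixes lack of a name with distance to one, and neither was tested alone.

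Mean ratios rose from gene desert bins to the bins within a few Mb on each side. Bins 1 Mb before a gene desert averaged -0.037, -0.061 and -0.0092 in lines 1, 2 and 3 (24 bins), and bins 1 Mb after one averaged -0.040, -0.048 and -0.0092 (25 bins). At 4 Mb the means were -0.011, -0.0043 and 0.011 before and 0.011, 0.0074 and 0.015 after. Named probes made up 48.9% and 53.5% of the bins next to a gene desert and 65.0% and 62.8% at 4 Mb, so the share of named probes rose along the same path. An adjoining bin that met the rule was counted in the run and not as a neighbour. The first step in named share, and perhaps in ratio, was therefore partly set by the rule. Name-free bins with 25 to 29 probes, just outside the rule, averaged -0.076, -0.12 and -0.049 in lines 1, 2 and 3. How far the low ratio reaches was not tested apart from named share.

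**Figure D5:**
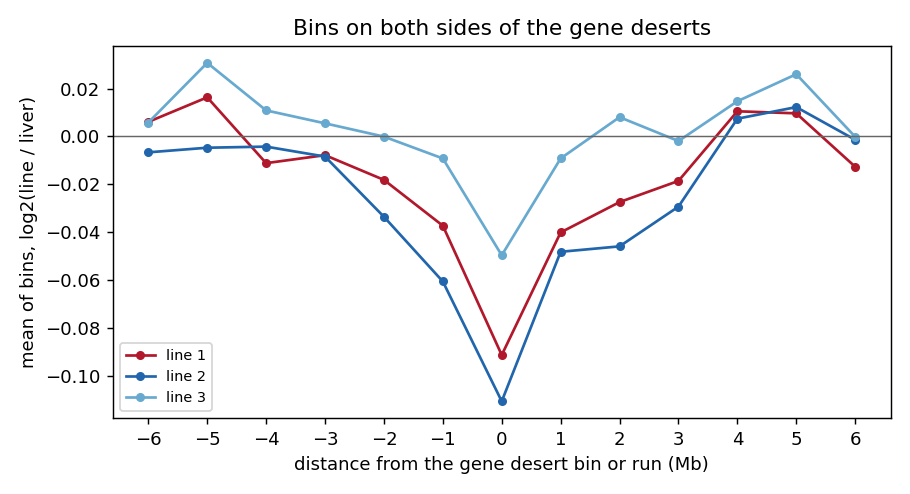
Mean log2 ratio (y axis) of bins at 1 to 6 Mb on both sides of a gene desert bin or run (x axis, Mb, with 0 for the 33 gene desert bins), 1 coloured line for each of lines 1 to 3. All 3 lines have their lowest value at 0 and lie between -0.011 and 0.015 at 4 Mb on both sides.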

How the data were processed

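Spot intensity was processed by the authors in Agilent Feature Extraction 10.7.3.1, per the file headers, with background subtraction, detrending and linear dye normalisation. Coordinates are mm9. The deposited scanner files and the deposited value table also hold log10 ratios, used as alternatives. The table's log10 values correlated with the scanner ratios at 0.844 to 0.884 with slopes of 0.998 to 1.01, which settles scale and direction. The sources do not describe its centring.

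Control spots and outlier spots were left out, spots of a probe were averaged (170305 probes, 161460 autosomal), and log2 of Cy5 over Cy3 was centred on each array's autosomal median. In R 4.3.3, limma 3.58.1 compared each bin mean with 0 across lines by eBayes, with Benjamini-Hochberg adjustment over 2229 bins. Differences between sets of bins were tested over 3 lines by an exact sign flip test. Python 3.11.15 was used for the rest. On simulated data for the bin test, limma called 68 of 100 bins shifted by 0.1, 90 of 100 shifted by 0.2 and 3 of 2029 unshifted ones, with noise drawn independently for each line. The number of arrays limits the precision.

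Named bins were the 5 highest, the 5 lowest, the 3 longest runs and the 3 with the largest gap between line 1 and the others, with the nearest array name that RefSeq matched on each side. The members and lists were chosen with earlier results of these data known. Counts of edge genes in gene lists are not reported here.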

Additional observations from a re-analysis of the deposited data

How the results depend on the processing

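Of 73 values under other settings, 56 stayed within the spread between lines (for counts, within a set factor), 17 moved and 0 reversed. The difference between gene desert and other bins was -0.10 to -0.072 with 1 line left out, and moved to -0.037 in the value table, to -0.014 against other bins with under 25% of probes named and to -0.034 against those with 30 to 39 probes. The 24 gene desert bins called by limma became 76 of 113 with at least 10 probes a bin (67.3%, against 40.1% of all bins), 1 of 1 with at least 50 (40.4% of all bins), 94 of 157 in bins of 500 kb (59.9%, against 39.6%; 84 below and 10 above 0), 2 of 2 in bins of 2 Mb (39.5% of all bins) and 14 of 19 with no enclosed coding gene (73.7%). With 1 line left out, 16 to 22 of the same 33 bins were called: 19 without line 1 (33.6% of all bins), 16 without line 2 (15 below and 1 above 0, 21.0% of all bins) and 22 without line 3 (28.4% of all bins). The share of all bins called was thus lower too with 2 lines than the 39.6% with 3. Bins at least 0.2 from 0 in some line went from 7 to 1 in the value table, 16 with at least 10 probes (2.35% of all bins), 0 with at least 50 (0.878%), 34 at 500 kb (5.92%), 0 at 2 Mb (0.343%) and 2 with bins shifted by 500 kb. The SD over bins went from 0.080 to 0.037 at 2 Mb and 0.057 with shifted bins, and the liver difference from 0.065 to 0.058 under normexp. The cause of these moves was not tested. No paired analysis was possible because the labels name a single group; with lines 2 and 3 averaged as 1 animal the difference was -0.086. The comparison with bins of 30 to 39 probes and both choices by enclosed coding genes were added after seeing the data.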

Other observations

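By the same rule, 4 bins of the X chromosome had no named probe. Their means were 0.016, -0.097 and -0.033 in lines 1, 2 and 3, and the 127 other X bins averaged -0.024, -0.067 and -0.033, so the difference had no common direction over the lines. Among the 50 lowest of the 2229 autosomal bins by mean ratio, 8 were gene desert bins (16%), against 1.48% of all bins, and among the 50 highest 0 were. These counts take no account of the number of probes in a bin.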
